A study of Mus musculus with 10 samples.

Results

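The ectodysplasin (Eda) pathway and its NF-kB transducers are described here in the developing mouse molar by 10 genes, *Eda*, *Edar*, *Edaradd*, *Traf6*, *Tnfrsf19*, *Eda2r*, *Ikbkg*, *Chuk*, *Ikbkb* and *Nfkbia*. The members were picked as named genes of the pathway through their Ensembl IDs, with earlier results of these data known, and all 10 were among the 27528 genes of the expression table. The study's own tabulation of the Eda pathway holds 19 genes in all, 9 of the members among them; *Tnfrsf19* is tabulated elsewhere.

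The samples are germs of the first molar from NMRI mice, which are outbred, with no allele or treatment named, taken on the embryonic days E13.5 (bud stage) and E14.5 (cap stage). Each stage had 5 samples, every one a pool of 12 to 18 germs holding epithelium and mesenchyme together, read on an Affymetrix Mouse Exon Array 1.0. The arrays of either stage are numbered 1, 2, 4, 5 and 6. Values were read as log2 gene signals, although the log base is not stated. A difference of 1 is then a doubling, and all fold values rest on this reading. The response of the probes differs between genes, so that levels were compared only within a gene.

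Ectodysplasin is a ligand of the tumor necrosis factor family that signals in the ectoderm of teeth, hair and glands. It binds the receptor Edar, which recruits the death domain adaptor Edaradd and, through Traf adaptors, the IKK kinase complex. IKK phosphorylates the inhibitor encoded by *Nfkbia*, whose loss releases NF-kB dimers to the nucleus. *Edar* is known for its expression in the dental epithelium and the enamel knot, the signaling center that appears when the bud turns into the cap, and mutations of the ligand, the receptor or the adaptor cause ectodermal dysplasia with misshapen or missing teeth. The study places *Eda*, *Edar*, *Edaradd* and *Chuk* among its shape genes, those whose loss alters the form of the tooth, *Traf6* among genes whose loss prevents eruption, and *Tnfrsf19* among genes dispensable for the tooth.

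Promoter sequences are shown for the 3 members whose arrays did not overlap between stages and for *Nfkbia*, *Nfkb2* and *Traf3*, pathway genes that rose and held a kappa B sequence. They are the 250 bases before the RefSeq start of each gene (GRCm38.p6), written 5′ to 3′ on the gene's strand, with capitals marking every match to the degenerate NF-kB consensus on either strand. The *Eda* window is chrX:99975356-99975605 on the plus strand, that of *Edar* chr10:58675697-58675946 on the minus strand, that of *Edaradd* chr13:12520451-12520700 on the minus strand, that of *Nfkbia* chr12:55492648-55492897 on the minus strand, that of *Nfkb2* chr19:46304487-46304736 on the plus strand and that of *Traf3* chr12:111166120-111166369 on the plus strand.
Eda: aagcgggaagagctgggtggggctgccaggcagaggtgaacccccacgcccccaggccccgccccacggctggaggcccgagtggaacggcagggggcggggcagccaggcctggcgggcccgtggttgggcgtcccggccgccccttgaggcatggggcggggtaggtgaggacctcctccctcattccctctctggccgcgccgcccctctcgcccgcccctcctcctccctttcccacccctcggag
Edar: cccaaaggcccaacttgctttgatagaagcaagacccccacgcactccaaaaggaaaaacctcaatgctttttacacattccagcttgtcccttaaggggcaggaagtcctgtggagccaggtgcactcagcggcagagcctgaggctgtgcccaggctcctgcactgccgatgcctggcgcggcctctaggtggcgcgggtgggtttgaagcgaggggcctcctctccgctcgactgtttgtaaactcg
Edaradd: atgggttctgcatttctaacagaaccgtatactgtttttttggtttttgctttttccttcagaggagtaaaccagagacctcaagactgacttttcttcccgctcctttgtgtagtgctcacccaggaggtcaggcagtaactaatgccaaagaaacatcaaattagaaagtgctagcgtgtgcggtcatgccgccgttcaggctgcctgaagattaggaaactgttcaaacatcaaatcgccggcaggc
Nfkbia: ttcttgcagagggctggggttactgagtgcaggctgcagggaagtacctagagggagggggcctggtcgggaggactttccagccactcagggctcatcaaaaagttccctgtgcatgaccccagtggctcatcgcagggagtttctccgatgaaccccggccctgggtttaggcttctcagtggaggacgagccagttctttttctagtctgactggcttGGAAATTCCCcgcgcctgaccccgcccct
Nfkb2: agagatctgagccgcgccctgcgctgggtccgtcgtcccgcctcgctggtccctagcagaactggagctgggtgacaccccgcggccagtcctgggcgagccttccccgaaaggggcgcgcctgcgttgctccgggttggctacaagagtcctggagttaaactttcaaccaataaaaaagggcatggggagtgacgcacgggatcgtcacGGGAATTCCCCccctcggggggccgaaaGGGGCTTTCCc
Traf3: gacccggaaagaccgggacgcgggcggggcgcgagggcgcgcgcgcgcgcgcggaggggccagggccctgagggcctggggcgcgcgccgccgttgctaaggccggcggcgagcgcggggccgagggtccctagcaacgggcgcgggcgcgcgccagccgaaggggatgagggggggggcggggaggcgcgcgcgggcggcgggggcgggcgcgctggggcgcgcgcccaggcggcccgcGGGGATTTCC

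RefSeq windows were matched by symbol for 9 of the 10 members, 13 windows in all, with no entry for *Ikbkb*. The consensus was found in 1 of these 9 members, *Nfkbia*, where GGGAATTTCC lay on the opposite strand from 29 to 20 bases before the start. Among other genes of the pathway, 8 of 10 were matched and 3 held it, *Nfkb2*, *Traf3* and *Map3k7*. *Nfkb2* held it in 3 of its 3 windows, and in *Traf3* GGGGATTTCC ran from 10 bases before the start to 1 base before it. *Map3k7* held a match and did not rise, *Rela* rose and held none, and *Nfkb1* and *Relb* had no entry. Of the targets 2 of 7 were matched, *Wnt10b*, which held matches from 204 to 195 and from 40 to 31 bases before the start, and *Foxi3*, which held none. Among all RefSeq windows, 7.25% held a match, which makes 8.23% of all genes. These are matches of letters in a short window and do not show binding.

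The first question was which parts of the pathway differed between the bud and the cap. The ligand, its receptor and the adaptor between receptor and Traf proteins rose together, as did *Tnfrsf19* and the inhibitor *Nfkbia*, whereas no subunit of the IKK complex passed the test. Of the 10 members, 5 were called at an adjusted p under 0.05 (limma), all 5 higher at E14.5, against 7.85% of all genes called, 4.36% called higher and 3.49% called lower. By limma 0 members were called lower, and 1 of the 6 members with an unadjusted p under 0.05 was lower, *Chuk*. Of all 27528 genes, 5155 had an unadjusted p under 0.05. In 3 members bud and cap arrays did not overlap, with the cap higher each time; of all genes 8.84% did not overlap, 4.82% with the cap higher and 4.01% with it lower. The median change of the members was 0.26 log2 units, and that of all genes was -0.0145.

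**Figure D1:**
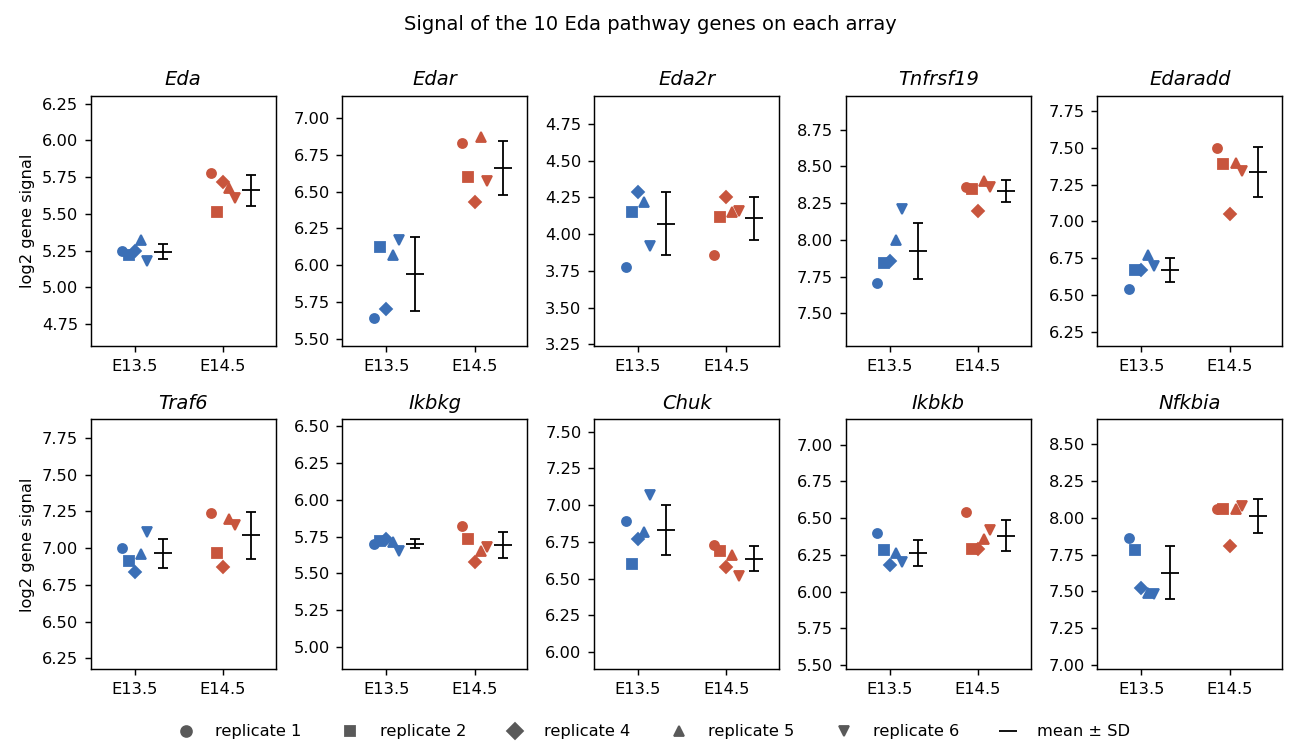
Log2 gene signal of each member (y axis, the same span in every panel) on the 5 arrays of E13.5 and the 5 of E14.5 (x axis). Marker shapes stand for replicate numbers, black bars for the mean ± SD. *Eda*, *Edar* and *Edaradd* do not overlap between stages, and the other members do.

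The ligand gene *Eda* (ENSMUSG00000059327) had signals of 5.25, 5.22, 5.25, 5.32 and 5.18 on the E13.5 arrays (replicates 1, 2, 4, 5 and 6, the order used throughout) and of 5.78, 5.51, 5.72, 5.68 and 5.61 on those of E14.5. Every cap array was above every bud array. The mean went from 5.24 ± 0.05 to 5.66 ± 0.10 (SD, n = 5 per stage), which is 1.34-fold, or 0.42 log2 units with an SE of 0.0655 (limma adjusted p = 0.00186).

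Its receptor gene *Edar* (ENSMUSG00000003227) had signals of 5.64, 6.12, 5.70, 6.07 and 6.17 at E13.5 and of 6.83, 6.60, 6.43, 6.87 and 6.57 at E14.5. The bud arrays fell into a lower pair, replicates 1 and 4, and a higher group, and all of them lay under the cap arrays. The mean went from 5.94 ± 0.25 to 6.66 ± 0.19 (SD, n = 5). This 1.65-fold rise was the largest among the members, 0.72 log2 units with an SE of 0.127 (limma adjusted p = 0.00402).

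The gene signal does not separate the isoforms of the ligand. *Eda2r* (ENSMUSG00000034457) encodes the receptor of the ectodysplasin isoform that Edar does not bind. Its signals were 3.78, 4.15, 4.29, 4.22 and 3.92 at E13.5 and 3.86, 4.12, 4.25, 4.15 and 4.16 at E14.5, all under the array medians of 5.06 to 5.22. The stages overlapped throughout, and the change of 0.04 had a 95% interval from -0.20 to 0.28 (limma adjusted p = 0.938).

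*Tnfrsf19*, also called Troy (ENSMUSG00000060548), encodes a receptor of the same family related to Edar. Its signals were 7.71, 7.84, 7.86, 8.0 and 8.21 at E13.5 and 8.36, 8.35, 8.20, 8.40 and 8.36 at E14.5. The stages touched only through replicate 6 of the bud and replicate 4 of the cap. The change was 0.41 ± 0.092 (SE, limma adjusted p = 0.0173), 1.33-fold. Without E14.5 replicate 5 the adjusted p was 0.0505 for a change of 0.39.

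The adaptor gene *Edaradd* (ENSMUSG00000095105) had signals of 6.54, 6.67, 6.67, 6.77 and 6.70 at E13.5 and of 7.50, 7.39, 7.05, 7.40 and 7.34 at E14.5. The cap arrays were all above the bud arrays, replicate 4 being the closest to them. The mean went from 6.67 ± 0.08 to 7.34 ± 0.17 (SD, n = 5), which is 1.59-fold, or 0.66 log2 units with an SE of 0.0863 (limma adjusted p = 0.000516).

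*Traf6* (ENSMUSG00000027164), a ubiquitin ligase that passes the signal of several receptors of the family to IKK, ranged from 6.84 to 7.11 at E13.5 and from 6.87 to 7.24 at E14.5. The stages overlapped, and the change of 0.12 (95% interval -0.07 to 0.31) did not pass the test (limma adjusted p = 0.525).

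The IKK complex consists of the kinases IKK alpha, encoded by *Chuk*, and IKK beta, encoded by *Ikbkb*, with the regulatory subunit NEMO, encoded by *Ikbkg*. *Chuk* (ENSMUSG00000025199) had signals of 6.89, 6.60, 6.77, 6.82 and 7.07 at E13.5 and of 6.73, 6.69, 6.58, 6.66 and 6.52 at E14.5. The bud arrays reached higher, but replicate 2 of the bud lay among the cap arrays. The change was -0.20 (limma unadjusted p = 0.0460, adjusted p = 0.254).

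*Ikbkb* (ENSMUSG00000031537) ranged from 6.18 to 6.40 at E13.5 and from 6.29 to 6.54 at E14.5, a change of 0.11 with a 95% interval from -0.04 to 0.27 (limma adjusted p = 0.459). *Ikbkg* (ENSMUSG00000004221) ranged from 5.65 to 5.73 and from 5.58 to 5.82, with a change of -0.01 and an interval from -0.14 to 0.12 (limma adjusted p = 0.970). None of the 3 subunits passed the test in any alternative run.

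The inhibitor gene *Nfkbia* (ENSMUSG00000021025), itself a classical transcriptional target of NF-kB, had signals of 7.86, 7.78, 7.52, 7.49 and 7.48 at E13.5 and of 8.06, 8.06, 7.81, 8.06 and 8.08 at E14.5. Except for replicate 4 the cap arrays were nearly equal and above the bud arrays, of which replicates 1 and 2 were the highest. The mean went from 7.62 ± 0.18 to 8.01 ± 0.12 (SD, n = 5), which is 1.31-fold, or 0.39 log2 units with an SE of 0.0941 (limma adjusted p = 0.0250). This call was the least firm of the 5: it was lost in 7 of the 10 fits that left out an array, namely all except those lacking replicate 1 or 2 of the bud or replicate 4 of the cap, and the adjusted p then reached 0.0758.

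**Figure D2:**
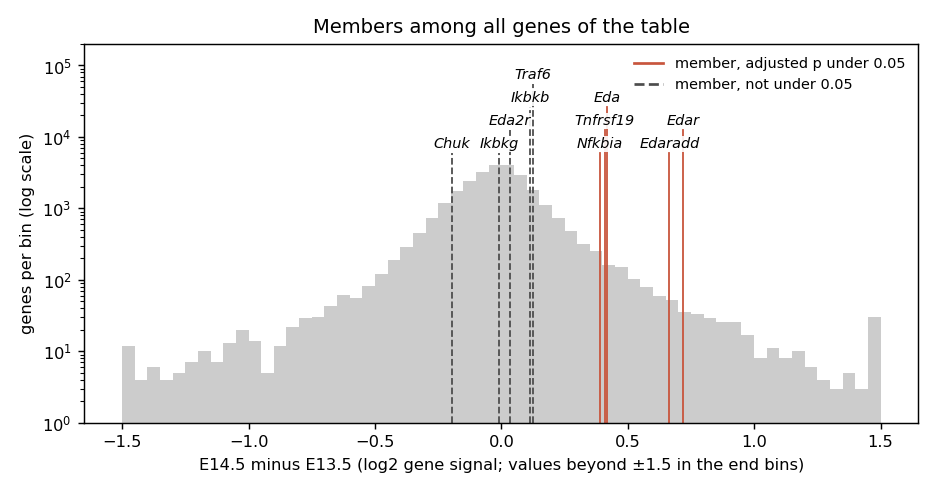
Number of genes (y axis, log scale) by change between stages in log2 gene signal (x axis, bins of 0.05), with the 10 members as vertical lines, solid where called by limma; line heights only separate the names. *Edar* at 0.72 and *Edaradd* at 0.66 lie farthest out, and *Chuk* at -0.20 lies on the other side.

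Differences between the changes of members were tested for 5 pairs by exact permutation of the arrays in all 252 splits (two-sided, smallest possible p 0.00794), with p-values adjusted over the 5 pairs. The change of *Edar* exceeded that of *Eda2r*, the receptors of the 2 ligand isoforms, by 0.68 log2 units (exact p = 0.0159, adjusted 0.0397). Whether the *Eda2r* signal lay above background is not known here, and a probe set at background shows no change, so that this value compares array signals and not the regulation of both receptors. Within the IKK complex, the change of *Chuk* was below that of *Ikbkb* by 0.31 (exact p = 0.0159, adjusted 0.0397), although neither passed the test on its own. The change of *Edar* exceeded that of *Tnfrsf19* by 0.31 (exact p = 0.0317, adjusted 0.0529) and that of its ligand by 0.30 (exact p = 0.0714, adjusted 0.0893), which missed the threshold with all arrays, and it differed from that of *Edaradd* by 0.05 (exact p = 0.595, adjusted 0.595). Without E14.5 replicate 4 both of the missed differences passed (exact adjusted p = 0.0496), as did that from *Tnfrsf19* when replicate 2 of the bud was left out (0.0198) and with quantile normalization (0.0397). Both called differences lost the threshold in 8 of the 10 repeats without an array, all except those lacking replicate 2 of the bud or replicate 4 of the cap, with adjusted p up to 0.0661. Such a difference also depends on how strongly the probes of each gene respond.

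Beyond the members, 10 genes of the tabulated Eda pathway encode Traf adaptors, the TAK1 kinase with its partner, and the NF-kB transcription factors. By limma 4 of these 10 were called, all 4 higher, against 7.85% of all genes called and 4.36% called higher. The arrays of these 4 did not overlap between stages. Of all genes, 4.82% had cap arrays wholly above bud arrays and 4.01% wholly below. *Nfkb2*, which encodes the precursor of the alternative NF-kB branch, had signals of 5.73, 6.01, 5.71, 5.78 and 5.86 at E13.5 and of 6.34, 6.18, 6.07, 6.27 and 6.27 at E14.5. It rose by 0.41 ± 0.0782 (SE, limma adjusted p = 0.00678). *Relb*, its usual dimer partner, went from 5.18 ± 0.11 to 5.53 ± 0.05 (SD, n = 5), a rise of 0.35 (limma adjusted p = 0.00629).

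*Rela*, the transactivating subunit of the canonical dimer, went from 7.31 ± 0.07 to 7.64 ± 0.15 (SD, n = 5), a rise of 0.33 (limma adjusted p = 0.0264). *Traf3*, an adaptor known to restrain the alternative branch, went from 6.54 ± 0.17 to 6.91 ± 0.10 (SD, n = 5), a rise of 0.37 (limma adjusted p = 0.0233). *Rela* and *Traf3* were each lost in 6 of the 10 fits without an array and with arrays centred on their medians, and the count of called genes was then as low as 2, as in the fits lacking replicate 1, 4 or 5 of the bud or replicate 1, 5 or 6 of the cap. *Nfkb1*, the partner of *Rela*, had a change of 0.14 (limma adjusted p = 0.292), which passed only with quantile normalization among the alternatives run (0.17, limma adjusted p = 0.0475). *Map3k7*, the TAK1 kinase gene, had bud signals of 8.01 to 8.13 all above its cap signals of 7.88 to 7.99, but its change of -0.12 did not pass the test (limma adjusted p = 0.285), and *Tab2*, *Traf1*, *Traf2* and *Traf4* changed by between -0.04 and 0.10 with overlapping stages. Over the 19 genes tabulated for the pathway, 8 were called, all 8 higher, with a median change of 0.12. Among all genes 7.85% were called and 4.36% called higher, with a median change of -0.0145.

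**Figure D3:**
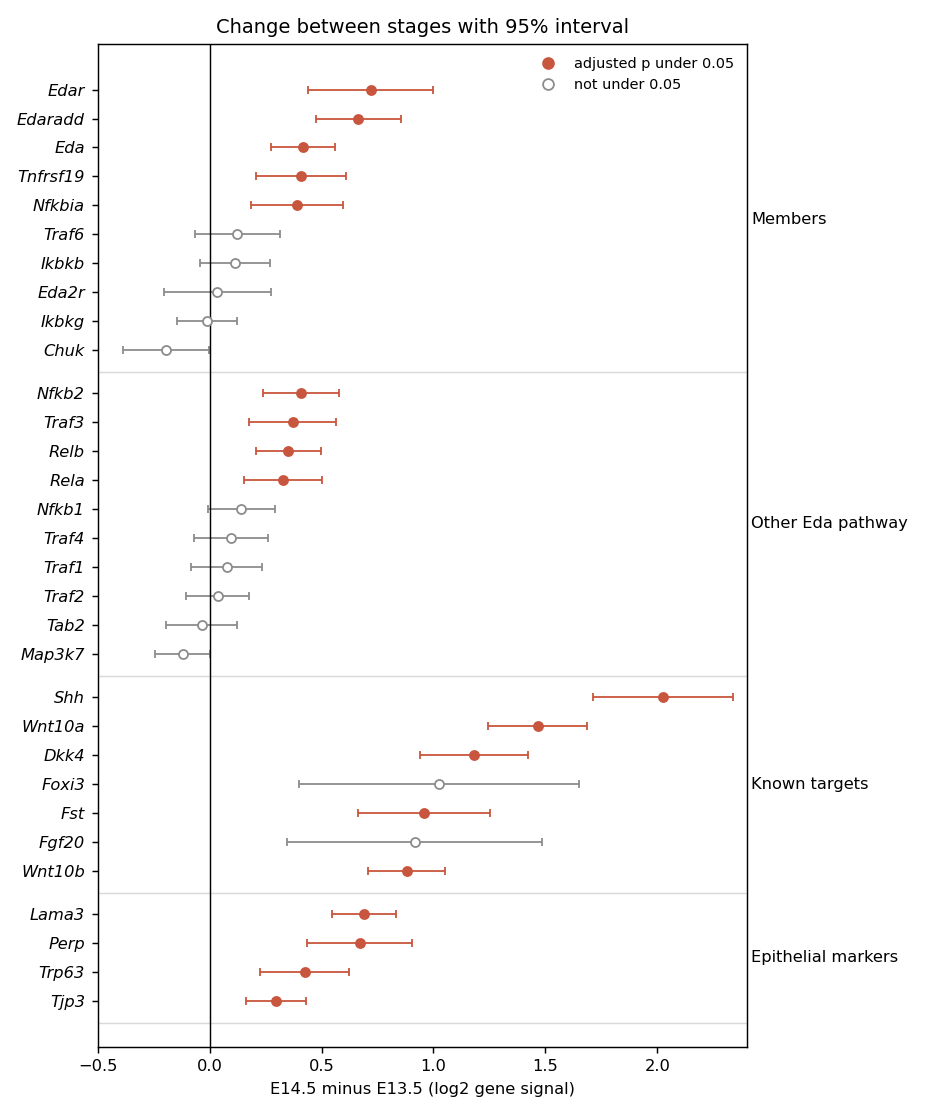
Change between stages in log2 gene signal (x axis) with its 95% interval from limma for the 10 members, 10 other genes of the Eda pathway, 7 known target genes and 4 epithelial markers (y axis). Filled points passed an adjusted p of 0.05; targets such as *Shh* at 2.02 lie beyond every member.

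Genes known to respond to Eda or NF-kB signaling in skin appendages and teeth formed a separate list of 7. Of these 5 were called by limma, all 5 higher, against 7.85% of all genes called and 4.36% called higher. Whether Eda signaling had a part in their changes was not tested. *Shh*, the hedgehog ligand of the enamel knot, had signals of 6.31, 6.86, 7.00, 6.73 and 6.51 at E13.5 and of 8.49, 8.85, 8.57, 8.57 and 9.04 at E14.5. It rose by 2.02 ± 0.143 (SE, limma adjusted p = 8.69e-06). *Wnt10a* rose by 1.46 and *Wnt10b* by 0.88, both Wnt ligands, *Dkk4*, a secreted Wnt inhibitor, by 1.18, and *Fst*, the activin antagonist follistatin, by 0.96 (limma adjusted p between 8.17e-06 and 0.000906). *Fgf20*, a ligand made in signaling centers, changed by 0.92 (limma adjusted p = 0.0549), and *Foxi3*, an epithelial transcription factor, by 1.02 (limma adjusted p = 0.0513); both spread widely at E13.5, where replicate 1 was the lowest with 6.26 and 7.43. Without that array *Foxi3* changed by 0.70 and passed the test (limma adjusted p = 0.00132), as it did without E13.5 replicate 2, whereas *Fgf20* passed when replicate 5 or 6 of the bud or replicate 1 of the cap was left out. Both passed with quantile normalization, with dim genes left out, with limma-trend, with array weights and with the replicate block. That makes 7 of 7 targets in these 5 alternatives. Of all genes tested they called 9.07%, 17.5%, 8.71%, 14.2% and 7.55%, in this order. The count of targets lay between 5 and 7 in all alternatives run.

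The pools hold several tissues, and markers of the tissues differed between the stages. Of 4 epithelial markers (*Trp63*, *Perp*, *Lama3* and *Tjp3*) all 4 were called higher at E14.5, and the median marker signal per array went from 6.68 ± 0.10 to 7.24 ± 0.06 (SD, n = 5), from a range of 6.53 to 6.81 to a range of 7.19 to 7.34. The sum of the log2 signals of the 4 was 27.6 to 28.9 at E13.5 and 30.2 to 30.6 at E14.5, which is not a sum of signals on a linear scale. Of 6 mesenchymal markers 5 were lower, their median signal going from 8.48 ± 0.09 to 7.35 ± 0.07 (SD, n = 5), and their summed signal from between 49.6 and 50.7 to between 44.1 and 45.0, though *Msx1*, *Barx1*, *Lhx6* and *Lhx8* are themselves regulated in the tooth. Bone markers rose in 2 of 3 (*Col1a1* and *Alpl*; summed signal of the 3 from 18.4 to 19.4 at E13.5 and from 19.6 to 20.8 at E14.5). The call of *Col1a1* was lost when replicate 1 or 5 of the bud or replicate 2, 4, 5 or 6 of the cap was left out, with limma adjusted p up to 0.0757. Of 2 endothelial markers 0 passed the test in limma, 0 of them at an unadjusted p under 0.05 either. Every epithelial and mesenchymal marker was above the array median on every array. In a bulk sample fewer cells of a type and less RNA per cell cannot be told apart.

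Signals were therefore also taken relative to the epithelial median of the same array. On this scale *Edar* went from -0.74 ± 0.25 to -0.58 ± 0.17 (SD, n = 5), a difference of 0.16 (exact p = 0.286, adjusted 0.286 over 2 tests, two-sided). *Edaradd* differed by 0.11 (exact p = 0.151, adjusted 0.286), and the stages overlapped in both, so that neither passed the threshold. The values rest on the choice of markers, since *Trp63* rose by 0.42 and *Lama3* by 0.69. With *Lama3* or *Tjp3* left out the median is that of *Trp63*, and *Edar* was higher at E14.5 by 0.30 and *Edaradd* by 0.24 (exact adjusted p = 0.0159 in both). With *Trp63* or *Perp* left out it is that of *Lama3*, and the values were 0.03 and -0.02 (exact adjusted p = 0.873 in both). Without E14.5 replicate 4 *Edaradd* was higher by 0.17 (exact adjusted p = 0.0317).

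The remaining called members had relative changes of -0.14 for *Eda*, -0.15 for *Tnfrsf19* and -0.17 for *Nfkbia*, with overlapping stages. *Nfkb2* at -0.15, *Traf3* at -0.19 and *Rela* at -0.23 overlapped too, whereas *Relb* at -0.20 did not. Since the epithelial median itself rose by 0.56, a gene with no change of its own falls by that much on this scale. The median of all genes was -0.57, and 69.4% of all genes were lower at E14.5 without overlap. The 5 members not called were among these, between -0.75 for *Chuk* and -0.43 for *Traf6*, so that nothing is read from their place. Among the targets *Shh* was higher by 1.47, *Wnt10a* by 0.91 and *Dkk4* by 0.62 without overlap, as 0.378% of all genes were, and the other 4 overlapped, *Foxi3* at 0.47, *Fst* at 0.40, *Fgf20* at 0.36 and *Wnt10b* at 0.32. The relative changes in this paragraph were not tested, nor was the part of the epithelial share in the changes of the members.

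**Figure D4:**
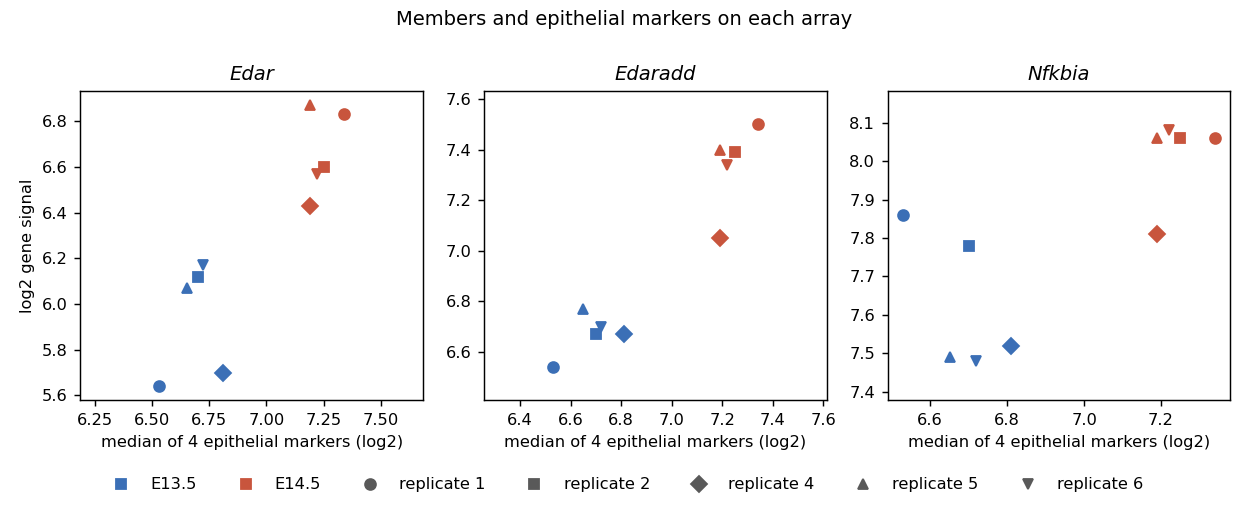
Log2 gene signal of *Edar*, *Edaradd* and *Nfkbia* (y axes) against the median log2 signal of the 4 epithelial markers (x axes) on each array, E13.5 in blue and E14.5 in red, marker shapes standing for replicates. *Edar* and *Edaradd* are lowest on the bud array with the lowest epithelial median, 6.53, whereas *Nfkbia* is at its bud maximum there.

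The arrays were alike in scale, with SDs of all gene signals from 1.51 to 1.74 and no pair holding identical values. E14.5 replicate 4 had the narrowest spread and was the lowest cap array in 4 of the 5 called members, *Edar*, *Edaradd*, *Tnfrsf19* and *Nfkbia*, and in 8 of the 9 genes called among the members and the other pathway genes. After quantile normalization it was still the lowest in 4 of the 5 and in 6 of the 9. E13.5 replicate 1 was the lowest bud array in 3 of the 5, *Edar*, *Edaradd* and *Tnfrsf19*, and had the lowest epithelial median. On the 8 arrays other than these 2, chosen after the data were seen, the counts were again 5 members and 4 other pathway genes. Of all genes 6.7% were called there, against 7.85% with all arrays.

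Within the 394 other genes with a symbol at hand, likeness of profile was measured as the root mean square difference over the 10 arrays after each gene was centred on its mean. The 3 nearest to *Edar* were *Rnf43* at 0.0962, *Bmp2* at 0.111 and *Spry2* at 0.136, where the median over all genes searched was 0.413. For *Edaradd* they were *Rnf43* at 0.118, *Fzd6* at 0.125 and *Bmp2* at 0.130 (median 0.358). *Rnf43* and *Bmp2* were thus near both the receptor and its adaptor. This distance includes the difference between stages, so genes with similar changes lie near each other. *Rnf43* changed by 0.62 and *Bmp2* by 0.81, beside 0.72 for *Edar* and 0.66 for *Edaradd*. *Eda* was nearest to *Fgf1* at 0.0992, *Dab1* at 0.10 and *Acvr1* at 0.102 (median 0.256). *Tnfrsf19* was nearest to *Znrf3* at 0.0785, *Stat6* at 0.0891 and *Traf3* at 0.0957 (median 0.268).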

How the data were processed

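Array signals were normalized by the authors in aroma.affymetrix with a Brainarray custom CDF (version 23), which groups probes by Ensembl gene. Their deposited table has 1 entry for each gene on each array. These entries run from 1.30 to 12.83 and the deposited scale was read as log2; the log base, background correction and summary model are not given in the sources used here. Signal over background and scan batches were not analysed here. Precision is limited by the number of arrays. Samples were grouped by the embryonic day in the labels; separate litters are not named, so p-values measure the spread between pools. 

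Stages were compared with limma 3.58.1 in R 4.3.3 (lmFit, eBayes, two-sided, 10 arrays, no covariate or filter), with Benjamini-Hochberg adjustment over 27528 genes. Single differences used exact permutation in Python 3.11.15 (numpy 2.4.6, scipy 1.17.1, pandas 2.3.3; plots by matplotlib 3.10.9). Tested on simulated data with 200 of 27528 genes changed by 1 log2 unit, limma recovered 88.5% with 6 false calls. The largest change of a member was 0.72, so this share does not hold for changes of the sizes seen in the members. Gene symbols are those the study tabulates beside 399 Ensembl IDs, of which 395 were found. The reference table does not pair Ensembl IDs with coordinates, so genes have none beyond the RefSeq promoter windows. The members, gene lists and pairs were chosen with earlier results of these data known. Genes named are all members, all genes of the fixed lists except 1 epithelial marker that is not reported here and was left out of every summary of that list, and the 3 nearest profiles of *Eda*, *Edar*, *Edaradd* and *Tnfrsf19*. Alternatives were quantile normalization, centring, array weights, limma-trend with robust estimates, the signal spread as a covariate, a filter on dim genes, calls by non-overlap, other epithelial summaries, a replicate block and leaving out each array.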

Additional observations from a re-analysis of the deposited data

Results flagged for a closer look

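Among 98 sets of 5 arrays examined for a single array far from the other 4, 7 stood apart by more than Dixon's 95% limit, where chance gives about 4.9. In 2 of the called members it was E14.5 replicate 4 that lay low: *Nfkbia* was 7.81 there against 8.06 to 8.08, a gap of 0.919 of the range, and *Tnfrsf19* was 8.2 against 8.35 to 8.40, a gap of 0.746. After quantile normalization these gaps were 0.657 and 0.353, under the limit of 0.71. Without that array the change was larger in both. Relative to the epithelial median, *Edaradd* stood at -0.14 on E14.5 replicate 4 where the other cap arrays had 0.12 to 0.21.

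In the other lists, *Foxi3* was 7.43 on E13.5 replicate 1, against 8.84 to 9.18, and 10 on E14.5 replicate 6, against 9.68 to 9.71. *Perp* was 10.47 on E14.5 replicate 6, against 10.18 to 10.24, and *Lhx6* was 8 on E13.5 replicate 4, against 8.14 to 8.17. After quantile normalization *Foxi3* on E13.5 replicate 1 still stood apart, with a gap of 0.801 of the range. The gaps of *Foxi3* on E14.5 replicate 6, *Perp* and *Lhx6* were then 0.618, 0.523 and 0.505, under the limit.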

How the results depend on the processing

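*Eda*, *Edar* and *Edaradd* kept their calls in all 18 alternatives to the limma fit, with adjusted p from 5.38e-05 to 0.0132. The count of called members, and of members higher at E14.5, was 3 when only non-overlap was asked and 3 to 5 without single arrays, 3 being the count without E14.5 replicate 5, where *Tnfrsf19* and *Nfkbia* were lost; *Tnfrsf19* was also lost with centred arrays (adjusted p = 0.0585). Other pathway genes called were 2 with centred arrays and 2 to 4 without single arrays, and targets called were 5 to 7 over all alternatives. Of all genes, 8.84% did not overlap and 6.09% were called with centred arrays. Without single arrays 5.37% to 9.28% were called, 5.82% being the share without E14.5 replicate 5. The highest share among the limma alternatives was 17.5%, of the genes left when dim genes were removed. The median change of the members was 0.39 with dim genes left out, which removes *Eda2r*, and 0.23 to 0.29 without single arrays. Without single arrays, *Edar* minus *Eda* was 0.22 to 0.37, *Edar* minus *Edaradd* -0.00534 to 0.10, *Edar* minus *Tnfrsf19* 0.27 to 0.38, *Edar* minus *Eda2r* 0.57 to 0.78, *Chuk* minus *Ikbkb* -0.37 to -0.23, and the relative changes of *Edar* and *Edaradd* 0.0690 to 0.21 and 0.0744 to 0.17, the last without E14.5 replicate 4 (exact adjusted p = 0.0317). On the 8 arrays other than E13.5 replicate 1 and E14.5 replicate 4, chosen after seeing the data, *Edar* minus *Edaradd* was -0.000987. There *Edar* minus *Eda2r* was 0.78 (exact adjusted p = 0.0952) and *Chuk* minus *Ikbkb* -0.34 (exact adjusted p = 0.0952). The 8 arrays allow fewer splits than 252, so the smallest possible exact p is above 0.00794 and the threshold is harder to pass. With all arrays these 2 differences were 0.68 and -0.31. With quantile normalization *Edar* minus *Tnfrsf19* was 0.31 (exact adjusted p = 0.0397), now past the threshold, as it was without E13.5 replicate 2 (0.0198) or E14.5 replicate 4 (0.0496), and as *Edar* minus *Eda* was without E14.5 replicate 4 (0.0496). Relative *Edar* and *Edaradd* were 0.03 and -0.0247 with the epithelial markers *Trp63* or *Perp* left out, and 0.30 and 0.24, both past the threshold, with *Lama3* or *Tjp3* left out. The causes of these shifts were not tested.

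Whether replicate numbers pair the samples is not known. The deviations of same-numbered arrays correlated across genes at 0.393, -0.0792, 0.513, 0.0304 and 0.283. Numbers 1 and 4, 2 of the 5, matched their own best, which does not settle the question. With the replicate block, limma called 2077 genes in place of 2162; among genes of the lists it added *Fgf20* and *Foxi3*, lost *Trp63* (adjusted p = 0.0572) and changed no other call. Differences tested by sign flips of the 5 pairs cannot go below 0.0625, so that under the replicate block *Edar* minus *Eda2r* (0.68) and *Chuk* minus *Ikbkb* (-0.31) could not pass.

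Some changes near 0 turned sign. *Eda2r* was -0.0176 with array weights, -0.0030 with the signal spread as a covariate, -0.0749 on the 8 arrays, and -0.0384, -0.0021 and -0.00125 without E13.5 replicate 1, E13.5 replicate 6 or E14.5 replicate 4. *Ikbkg* was 0.0102 with quantile normalization, 0.0177 on the 8 arrays and -0.0426 to 0.0190 without single arrays. *Tab2* was 0.0052 with quantile normalization and -0.0709 to 0.0080 without single arrays, and *Runx2* was 0.0059 on the 8 arrays and -0.13 to 0.0141 without single arrays.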
